A study of Mus musculus with 10 samples.

Results

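The comparison examined here sets ZF-SCN9A, an engineered zinc-finger protein directed at SCN9A, against mCherry in Neuro2a cells, a mouse neuroblastoma line. It takes every library with either label, 2 of ZF-SCN9A and 2 of mCherry, which makes 4 of the 10 libraries in the series. Both groups were wild-type by genotype and were transfected with 0.5 µg of plasmid and Lipofectamine. The medium was replaced after 24 h and the plates were incubated for 72 h. The series was designed to follow gene expression when SCN9A is knocked down. Its other 6 libraries carried dCas9-SCN9A or dCas9-empty (3 of each) and serve below only to show where the zinc finger differs. mCherry is a red fluorescent protein that does not bind DNA, so an effect of producing a zinc-finger protein and an effect of its binding at SCN9A cannot be told apart in this comparison. The share of cells that took up plasmid, and the repressor domain and binding site of the zinc finger, were not stated in the labels used here.

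A zinc finger is a small protein fold held by a zinc ion, and each finger contacts a few neighbouring bases of DNA. Fingers joined in a row recognise a longer stretch, and when an array of them is linked to a repressor domain, transcription near the bound site can be lowered. Fingers tolerate some mismatches, so such arrays can also occupy other places in the genome. SCN9A encodes NaV1.7, the voltage-gated sodium channel that amplifies small depolarisations in pain-sensing neurons, and it is expressed in neurons of the sympathetic lineage from which neuroblastoma arises.

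The entries for the plasmids' own sequences followed the labels. The zinc-finger entry held 246775 and 178465 reads in ZF-SCN9A replicates 1 and 2, equal to 3.92% and 4.04% of their gene counts, and 35 and 14 reads in the mCherry libraries. The mCherry entry held 186301 and 216581 reads in the mCherry libraries (2.83% and 2.90%) and 59 and 11 in ZF-SCN9A. Gene counts summed to 6.59 and 7.48 M (M, 1e6) with mCherry and to 6.30 and 4.41 M with ZF-SCN9A, so ZF-SCN9A replicate 2 was the shallowest library. Markers of neuroblastoma and neurons summed to 3087 and 3138 counts per 1e6 gene counts (CPM) with mCherry and to 3132 and 3165 CPM with ZF-SCN9A, although the neurofilament genes Nefl and Nefm lay under 1 CPM in every library. Marker sums of other cell types were low and overlapped between the groups, except the endothelial one. They were 13.7 to 21.6 CPM for fibroblasts (Thy1 at 0), 32.6 to 37.7 CPM for glia and 1.07 to 2.52 CPM for immune cells (Itgam at 0). The endothelial sum was 17.98 and 20.6 CPM with mCherry and 23.2 and 22.8 CPM with ZF-SCN9A, with Kdr and Emcn at 0. The part of such cells in the results was not tested.

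Scn9a itself (chromosome 2, 66480080 to 66634962, minus strand, GRCm38) was measured at 62.2 and 56.1 CPM in mCherry against 18.8 and 15.6 CPM in ZF-SCN9A. Both ZF-SCN9A libraries lay far below both mCherry libraries. The log2 fold change was -1.76 ± 0.14 (SE, n = 2 each). Its adjusted p = 1.71e-34 came from a quasi-likelihood test in edgeR, adjusted over all genes by Benjamini-Hochberg. This is the test behind every adjusted p below unless another is named, and a gene with an adjusted p under 0.05 is said to have risen or fallen. An exact two-sided permutation test over the 6 divisions of the 4 libraries gave p = 0.333, the smallest value that 2 against 2 allows. Scn9a was not the most strongly lowered gene. It ranked 11th by fold change among the genes that fell, 4th among the 86 that fell in every fit leaving out 1 library (after Klhl7, Limd1 and Adam15), and 9th by p among all genes.

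The promoter window of Scn9a was laid beside those of other lowered genes, since the zinc finger is directed at this gene. The windows are RefSeq's (GRCm38.p6), each of 300 bases, from 250 before to 50 after the annotated start, and are written 5′ to 3′ on the strand of the gene. RefSeq windows matched 9634 of the 12899 tested genes (74.7%) and 66 of the 86 genes that fell in every fit leaving out 1 library (76.7%). Comparisons of whole sets by their windows are therefore void, and only single genes are described. All 291 words of 10 letters in the Scn9a window were searched in the other windows on both strands. No word was held by more than 3 of the 65 other such genes with a window. The word GGTGGGGCGA, whose reverse complement is TCGCCCCACC, was the rarest of the words held by 3, and was picked after these values were seen. It occurred in the windows of Gramd4, Stat2 and Gnas, and in 38 of 9633 tested genes' windows in all (0.394%). It is in capitals below, where the window of Scn9a, at chr2:66634913-66635212 on the minus strand, is followed by those of Gramd4 (chr15:86057445-86057744, plus strand), Stat2 (chr10:128270248-128270547, plus strand) and Gnas (chr2:174329756-174330055, plus strand).
Scn9a: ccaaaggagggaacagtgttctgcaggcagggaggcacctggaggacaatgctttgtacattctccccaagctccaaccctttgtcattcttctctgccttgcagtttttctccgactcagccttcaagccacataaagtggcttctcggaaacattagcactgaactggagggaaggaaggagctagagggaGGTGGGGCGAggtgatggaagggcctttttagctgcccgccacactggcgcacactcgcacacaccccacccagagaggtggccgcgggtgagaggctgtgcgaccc
Gramd4: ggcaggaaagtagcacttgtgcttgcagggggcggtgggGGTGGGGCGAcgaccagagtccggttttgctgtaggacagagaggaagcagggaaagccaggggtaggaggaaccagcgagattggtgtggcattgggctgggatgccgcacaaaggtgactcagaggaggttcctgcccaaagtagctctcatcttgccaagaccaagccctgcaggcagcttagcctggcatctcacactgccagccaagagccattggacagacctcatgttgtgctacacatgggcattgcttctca
Stat2: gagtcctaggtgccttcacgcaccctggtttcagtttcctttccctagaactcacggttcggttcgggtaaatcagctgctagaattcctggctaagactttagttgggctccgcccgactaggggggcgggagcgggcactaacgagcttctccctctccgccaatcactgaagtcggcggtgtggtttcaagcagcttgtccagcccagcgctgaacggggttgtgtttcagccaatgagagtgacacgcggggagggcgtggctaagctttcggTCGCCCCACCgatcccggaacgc
Gnas: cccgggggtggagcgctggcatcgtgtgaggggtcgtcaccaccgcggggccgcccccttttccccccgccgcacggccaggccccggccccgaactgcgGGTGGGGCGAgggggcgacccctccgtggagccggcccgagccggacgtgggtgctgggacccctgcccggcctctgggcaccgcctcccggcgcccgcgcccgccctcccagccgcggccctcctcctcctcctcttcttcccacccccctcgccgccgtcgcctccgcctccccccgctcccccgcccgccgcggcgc
The word begins 57 bases before the start of Scn9a, 211 before that of Gramd4 and 150 before this one of the 4 annotated starts of Gnas. In Stat2 it lies on the other strand and begins 27 bases after the start. Of the 38 tested genes that hold it, Tgfb1 fell besides these (-1.01 ± 0.21, SE, adjusted p = 1.92e-04 by edgeR and adjusted p = 0.181 by DESeq2), and the others did not pass. The decreases of Gramd4, Stat2 and Gnas were what picked the word, and 2.78% of all tested genes fell. Words shared by Scn9a and 3 lowered genes also included GGCAGGGAGG (Erf, Gramd4 and Sncg, 1.04% of windows) and CACCCCACCC (Myadm, Ubac1 and Vegfc, 1.60% of windows). With the genes that picked the word, 10 of 100 tested genes holding GGCAGGGAGG fell and 3 rose. Of 154 holding CACCCCACCC 7 fell and 5 rose, Pld4 (2.89) among the latter. All these words are matches of letters, and whether the zinc finger binds any of them was not tested.

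In the whole comparison 609 of 12899 tested genes changed (4.72%), 251 higher (1.95%) and 358 lower (2.78%). Of these 33 rose and 37 fell by at least 2-fold. When 1 library was left out, fewer increases than decreases kept passing. In all 4 such fits 115 genes passed (0.892% of those tested), 86 of them lower and 29 higher, and among changes of at least 2-fold these were 24 lower and 8 higher. Without 1 library the number of genes higher ranged from 71 to 355 and the number lower from 130 to 432. DESeq2 passed 114 genes, 93 lower and 21 higher, all of them among the 609. In 604 of the 609 genes every library of one group lay above every library of the other, but this was also so for 45.6% of all tested genes. Genes that fell had longer exons in total (median 6020.5 bases) than genes that rose (3906) or all tested genes (4323), and higher levels (median 93.1 CPM against 48.5 and 34.6). They were also more often protein coding, at 98.0% against 93.2% and 91.4%. With a correction for exon length 580 genes passed, 222 higher and 358 lower. The part of the level in these counts was not tested.

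**Figure D1:**
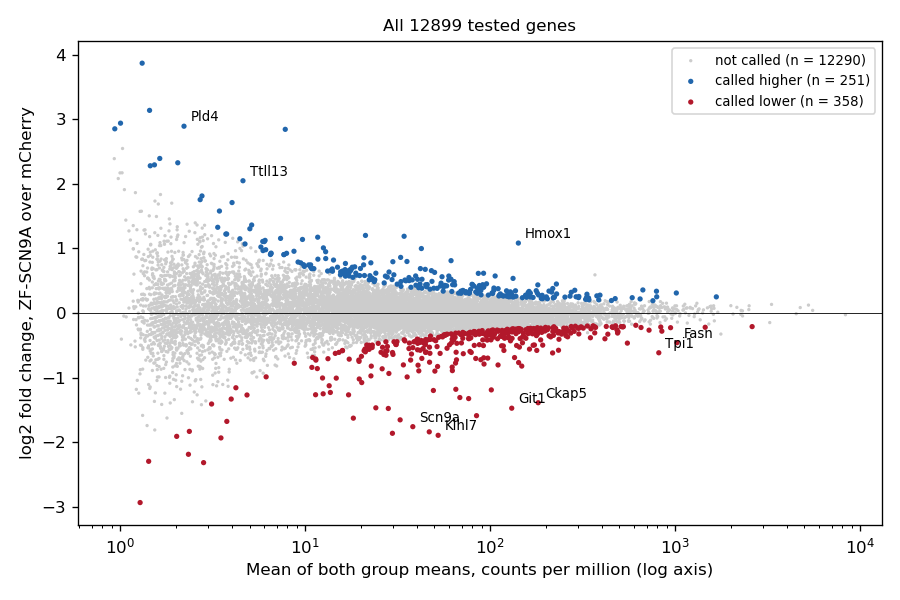
Each point is 1 of the 12899 tested genes, placed by its mean level in CPM (log axis) and its log2 fold change of ZF-SCN9A over mCherry. The 251 genes that rose are blue, the 358 that fell are red, and Scn9a at -1.76 has several lowered genes beside it, such as Klhl7 at -1.90.

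The 20 largest decreases among the genes that fell in every fit leaving out 1 library ran from -1.90 for Klhl7 to -1.18 for Pogk. In each of them both ZF-SCN9A libraries lay below both mCherry libraries, which follows in large part from how they were picked. Among all tested genes the groups did not overlap in 45.6%. Ckap5 (chromosome 2, 91526762 to 91620664), a microtubule polymerase that also works at the mitotic spindle, was measured at 263 and 262 CPM in mCherry against 92.3 and 109 CPM in ZF-SCN9A. The mCherry values were nearly equal and far above either ZF-SCN9A value. Its log2 fold change was -1.39 ± 0.08 (SE, adjusted p = 1.66e-69), the smallest p of all genes. Of 26 other tested genes of mitosis, Prc1 (0.28) rose and Mki67 (-0.22) fell, each passing in 1 of the 4 fits without 1 library. Positive values were found for 23 of these 26 mitosis genes (median 0.08), against 6506 of all 12899 tested genes, of which 4.72% passed. Of the 32 tested DNA replication genes 0 passed by edgeR, DESeq2 or limma-voom, and 3 reached an unadjusted p under 0.05.

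Acsl1, which couples long-chain fatty acids to coenzyme A, was measured at 111 and 108 CPM in mCherry against 44.5 and 42.5 CPM in ZF-SCN9A. It fell by 1.33 ± 0.10 on the log2 scale (adjusted p = 3.06e-37). Gramd4, a membrane protein with a lipid-binding GRAM domain, stood at 65.8 and 72.1 CPM against 32.8 and 26.5 CPM, and fell by 1.20 ± 0.12 (adjusted p = 4.75e-21). In both genes the ZF-SCN9A libraries lay well under the mCherry libraries. Exons of Gm45244 on the opposite strand overlap 9.91% of the exon bases of Acsl1, and the counts do not separate strands.

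Stat2, a transcription factor of the complex that answers type I interferon, was measured at 93.8 and 102 CPM in mCherry against 40.2 and 38.5 CPM in ZF-SCN9A. It fell by 1.31 ± 0.10 on the log2 scale (adjusted p = 3.05e-33). Of 24 tested interferon-stimulated genes, Stat2 included, 3 fell (Stat2, Ifi27 at -0.28 and the RNA sensor Ddx58 at -0.49) and 1 rose (the antiviral enzyme Rsad2 at 0.58), where 4.72% of all tested genes passed. Their median was -0.07, and 2 passed without mCherry replicate 1 or without either ZF-SCN9A replicate.

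Further members of the 20 were Vegfc, a growth factor of lymphatic vessels (17.8 and 14.2 CPM against 5.996 and 7.46), and Stac, an adaptor that binds calcium channels (25.1 and 23.4 CPM against 9.94 and 10.2). The proton pump subunit gene Atp6v1g1 stood at 136 and 146 CPM against 60.4 and 63.3. Vegfc fell by 1.27 ± 0.23 on the log2 scale (SE, adjusted p = 3.77e-06), Stac by 1.27 ± 0.19 (adjusted p = 3.08e-09) and Atp6v1g1 by 1.19 ± 0.09 (adjusted p = 2.22e-37). Atp6v1g1 encodes part of the pump that acidifies lysosomes. In the lysosome and autophagy list 0 of 30 tested genes passed by edgeR, where 4.72% of all tested genes did. By DESeq2 0 passed, by limma-voom 1 passed, and 2 reached an unadjusted p under 0.05. Pnma2, a gene of retrotransposon origin, stood at 17.7 and 20.7 CPM against 8.20 and 8.14. Pogk, which carries a KRAB domain and a transposase-derived domain, stood at 87.8 and 93.1 CPM against 38.8 and 41.2, and the noncoding B930095G15Rik at 17.1 and 18.5 CPM against 8.99 and 5.43. Exons on the opposite strand overlap 11.3% of the exon bases of Stac (Gm43236) and 10.995% of those of Pogk (Tada1). By DESeq2 Vegfc did not pass (adjusted p = 0.0515), while the other 19 did.

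**Figure D2:**
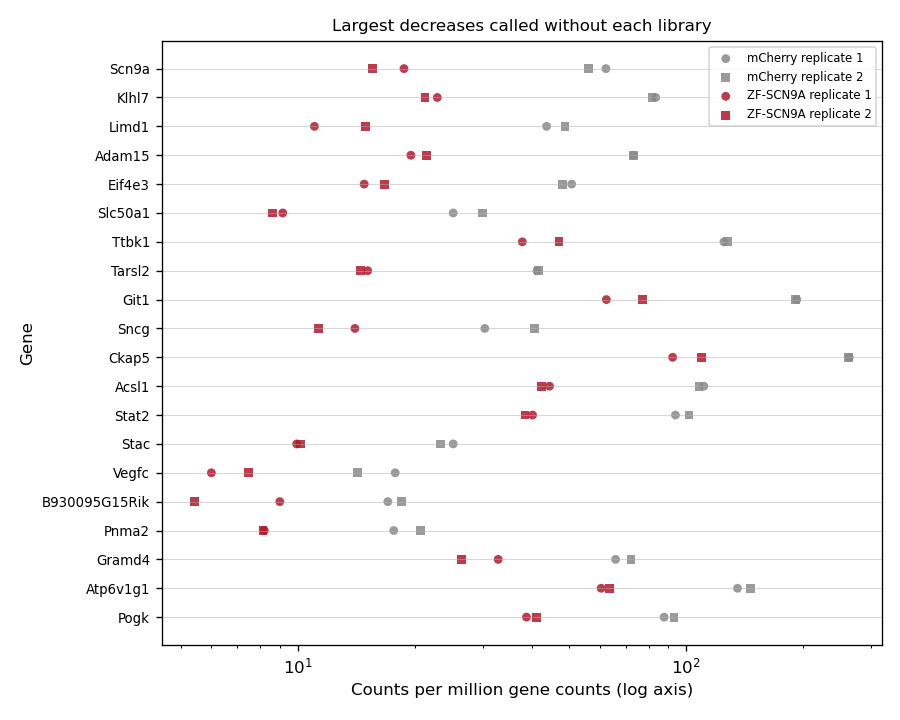
The 20 largest decreases among genes that fell in every fit leaving out 1 library, with the level of each of the 4 libraries in CPM (log axis). In each row both ZF-SCN9A points (red) lie left of both mCherry points (grey), with Scn9a in the top row and the others below it by size of decrease. The genes were picked for decreases in these same libraries, and the groups did not overlap in 45.6% of all tested genes.

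Several single members stood far from the rest of their families. The threonyl-tRNA synthetase paralog Tarsl2 (41.3 and 41.6 CPM against 15.1 and 14.5) was the 1 gene of 21 tested aminoacyl-tRNA synthetases that fell, and none rose. The list's median was 0.05. The cap-binding protein gene Eif4e3 (50.7 and 48.1 CPM against 14.8 and 16.7) was the 1 of 15 tested eIF4 and cap-binding factors that fell, and the inhibitor of cap binding Eif4ebp1 rose by 0.25. Eif4ebp1 did not pass by DESeq2 (adjusted p = 0.155) or in 3 of the 4 fits without 1 library, the exception being that without mCherry replicate 2. Klhl7 (83.5 and 81.7 CPM against 22.9 and 21.3) fell together with Klhl5, of the same family of substrate adaptors for CUL3 ubiquitin ligases. Klhl5 was measured at 38.2 and 36.3 CPM in mCherry against 19.4 and 19.5 CPM in ZF-SCN9A, and fell by 0.94 ± 0.15 on the log2 scale (SE, adjusted p = 4.12e-08). The other 23 tested BTB-Kelch adaptors did not pass, and the list's median was -0.02. Set beside each of these families, 4.72% of all tested genes passed.

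Among ion channel genes other than Scn9a, the calcium channel subunit gene Cacnb3 (-0.28 ± 0.09, SE, adjusted p = 0.0362) fell, and the potassium channel gene Kcnh2 (0.27 ± 0.08, adjusted p = 0.0116) and the T-type calcium channel gene Cacna1h (0.48 ± 0.15, adjusted p = 0.0410) rose. Each of them passed in 1 of the 4 fits that left out 1 library. The sodium channel gene Scn3a, which lies near Scn9a on chromosome 2, was measured at 37.2 and 35.3 CPM in mCherry against 27.8 and 25.1 CPM in ZF-SCN9A. It fell by 0.45 ± 0.14 on the log2 scale (adjusted p = 0.0333) and passed in none of the fits that left out 1 library. Of 18 tested genes beside Scn9a, Scn3a fell and Galnt3, a glycosyltransferase gene, rose (0.43 ± 0.13, adjusted p = 0.0193), where 4.72% of all tested genes passed. That count of 2 was 1 without mCherry replicate 1 and 0 when any other library was left out. The median of the list changed sign without ZF-SCN9A replicate 1 (0.05 against -0.07).

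Regulators of transcription and chromatin were also among the genes that fell in every fit leaving out 1 library. Atrx, Daxx, Med12, Kat5, Bach1 and Hif1a are described because of their roles and were chosen after their values were seen. ATRX and DAXX together place histone H3.3 in heterochromatin. Atrx was measured at 148 and 132 CPM in mCherry against 78.9 and 81.7 CPM in ZF-SCN9A, and fell by 0.81 ± 0.09 on the log2 scale (SE, adjusted p = 2.67e-18). Daxx was measured at 43.1 CPM in both mCherry libraries against 24.0 and 25.6 CPM in ZF-SCN9A, and fell by 0.80 ± 0.14 (adjusted p = 5.51e-07). For both genes the ZF-SCN9A replicates lay close together and well below the mCherry libraries.

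Med12, a subunit of the Mediator kinase module, stood at 83.03 and 79.7 CPM against 45.3 and 41.8, and fell by 0.89 ± 0.11 (adjusted p = 1.78e-14). Kat5, the acetyltransferase TIP60, stood at 27.9 and 30.6 CPM against 18.3 and 14.3, and fell by 0.82 ± 0.16 (adjusted p = 3.15e-05), though not by DESeq2 (adjusted p = 0.0871). Gm21986 shares 9.72% of the exon bases of Med12 and Rnaseh2c, on the opposite strand, 12.1% of those of Kat5. Ambiguous reads have an entry of their own, outside all gene counts. Reads on such shared bases may therefore be missing from both genes. KRAB domains silence DNA through the co-repressor TRIM28 and its partners. Among 24 tested genes for KRAB co-repressors and heterochromatin, Chd4 alone passed (-0.23, adjusted p = 0.0103), and it did so in 1 of the 4 fits without 1 library. The median of the list was -0.06, and 16 of its genes were negative, against 49.6% of all tested genes, of which 4.72% passed.

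The transcription factor genes of the sympathoadrenal lineage changed unevenly. Gata2 was measured at 291 and 269.7 CPM in mCherry against 184 and 192 CPM in ZF-SCN9A, and fell by 0.58 ± 0.07 on the log2 scale (SE, adjusted p = 5.11e-14). Isl1 (-0.41) and Hand2 (-0.20) fell as well, while the receptor tyrosine kinase gene Ret (866 and 946 CPM against 1108 and 1137) and Dbh, the enzyme that makes noradrenaline, rose by 0.31 ± 0.06 and 0.71 ± 0.18. Of 19 tested genes in this list 14 did not pass, where 4.72% of all tested genes passed, and the list's median was 0.04. The 5 that passed were 3 without ZF-SCN9A replicate 1, and leaving out replicate 2 in its place gave 2. Gata2 passed in every fit that left out 1 library, while the others passed in at most 3 of the 4. Hand2os1, on the opposite strand, overlaps 19.6% of the exon bases of Hand2, and reads on these bases may be missing from its counts as ambiguous.

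Immediate early genes, which respond within minutes to growth factor and calcium signals, included Egr1. It was measured at 78.0 and 86.5 CPM in mCherry against 51.3 and 44.1 CPM in ZF-SCN9A, and fell by 0.78 ± 0.10 (SE, adjusted p = 2.15e-11). Dusp6 (-0.32) and Dusp1 (-0.56), phosphatases that switch off MAP kinases, fell, and Dusp4 (0.20) and the transcription factor gene Etv5 (0.22) rose. The other 25 of 30 tested genes did not pass, where 4.72% of all tested genes passed. Egr1 alone of these passed in every fit that left out 1 library, and the list's count of 5 was 1 without mCherry replicate 1 or ZF-SCN9A replicate 2 and 8 without mCherry replicate 2.

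**Figure D3:**
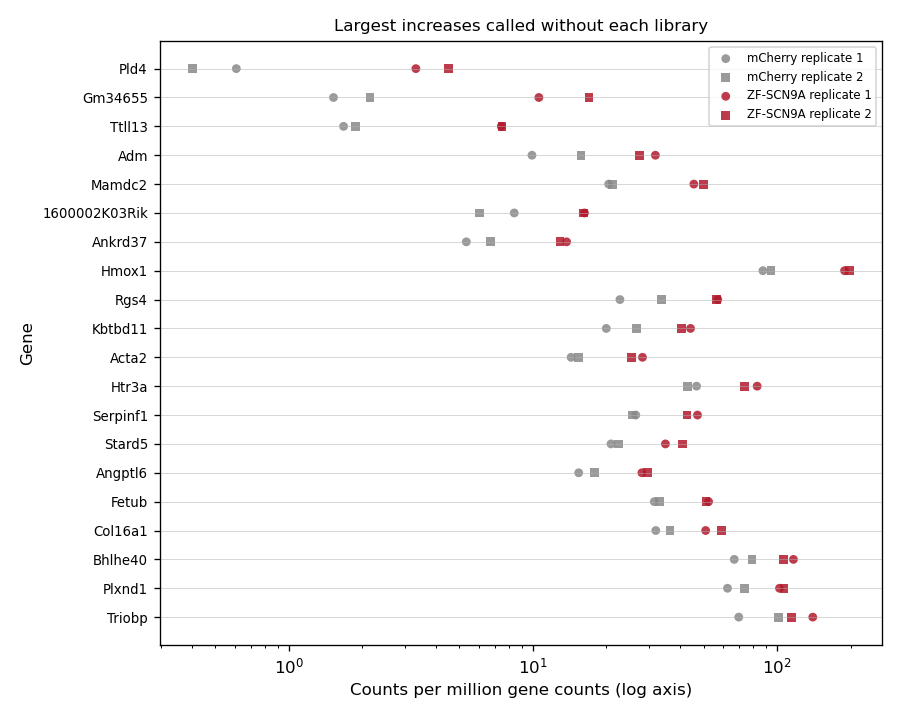
The 20 largest increases among genes that rose in every fit leaving out 1 library, with the level of each of the 4 libraries in CPM (log axis). Both ZF-SCN9A points (red) lie right of both mCherry points (grey) in each row, and mCherry replicate 1 (grey circle) lies left of replicate 2 in genes such as Adm, Rgs4 and Triobp. The genes were picked for increases in these same libraries, and the groups did not overlap in 45.6% of all tested genes.

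Fewer genes rose than fell in every fit leaving out 1 library. Pld4, an exonuclease of endosomes, and the noncoding Gm34655 had the largest increases among genes that rose in every fit leaving out 1 library. Pld4 was measured at 0.609 and 0.403 CPM in mCherry against 3.31 and 4.52 CPM in ZF-SCN9A (2.89 ± 0.60, SE, adjusted p = 1.57e-04), and Gm34655 at 1.52 and 2.15 CPM against 10.6 and 17.0 (2.84 ± 0.32, adjusted p = 1.14e-16). Both genes were low in the mCherry libraries and higher in both ZF-SCN9A libraries, and DESeq2 gave no adjusted p for Pld4.

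Hmox1, which encodes heme oxygenase 1, the enzyme that breaks heme down to iron, carbon monoxide and biliverdin, was measured at 87.5 and 94.4 CPM in mCherry against 189 and 197 CPM in ZF-SCN9A. The replicates of each group lay close together, and both ZF-SCN9A libraries were far above both mCherry libraries. It rose by 1.08 ± 0.08 on the log2 scale (SE, adjusted p = 4.99e-39), the smallest p among genes that rose. Fth1, the ferritin heavy chain that stores iron, rose by 0.34 ± 0.06 (678 and 723 CPM against 916 and 852; adjusted p = 5.50e-06), and did not pass without ZF-SCN9A replicate 1 (0.28, adjusted p = 0.0935). Bach1, the heme-sensing repressor known to hold Hmox1 and ferritin genes down, was measured at 57.6 and 49.3 CPM in mCherry against 27.3 and 30.3 CPM in ZF-SCN9A. It fell by 0.90 ± 0.13 on the log2 scale (adjusted p = 3.94e-10). Among all tested genes 1.95% rose and 2.78% fell. Of 24 tested NRF2 and antioxidant genes 2 rose (Hmox1 and Fth1), Osgin1 fell (-1.68, passing in 2 of the 4 fits without 1 library), and the median was 0.02. Without ZF-SCN9A replicate 1, Hmox1 alone of the list passed. The median turned negative with a correction for exon length and without mCherry replicate 1 or ZF-SCN9A replicate 1.

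Among receptors and signalling genes, Htr3a, a serotonin-gated ion channel, stood at 46.8 and 42.8 CPM against 82.8 and 73.3 and rose by 0.81 ± 0.11 (SE, adjusted p = 7.60e-12). Rgs4, which shortens signalling through G proteins, stood at 22.7 and 33.7 CPM against 57.1 and 56.3 (1.00 ± 0.12, adjusted p = 3.79e-13). Plxnd1, a semaphorin receptor, stood at 62.6 and 73.5 CPM against 102 and 107 (0.61 ± 0.09, adjusted p = 5.08e-09). The groups did not overlap in these genes, nor in 45.6% of all tested genes, and the mCherry libraries differed most from each other in Rgs4. Dlk1, a Notch ligand-like protein of adrenal and neuroblastoma cells chosen here after its value was seen, stood at 96.9 and 119.95 CPM against 159.8 and 155 (0.54 ± 0.08, adjusted p = 3.80e-09).

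Secreted and contractile proteins also appeared among the 20 largest increases. Smooth muscle actin, Acta2, stood at 14.3 and 15.3 CPM against 28.1 and 25.3 (0.86 ± 0.17, adjusted p = 2.99e-05), Serpinf1, the antiangiogenic factor PEDF, at 26.4 and 25.7 CPM against 47.2 and 42.8 (0.80 ± 0.13, adjusted p = 2.98e-07), and Col16a1, a fibril-associated collagen, at 31.8 and 36.4 CPM against 51.0 and 59.0 (0.68 ± 0.12, adjusted p = 3.33e-06). Of these 20, DESeq2 did not pass Acta2 (adjusted p = 0.0911), 1600002K03Rik (adjusted p = 0.0861), Angptl6 (adjusted p = 0.135), Ankrd37 (adjusted p = 0.176) or Triobp (adjusted p = 0.896). In the list of collagen and matrix genes 5 of 26 tested genes rose and 1 fell, where 1.95% and 2.78% of all tested genes did. Sparc (0.45 ± 0.07) and Col4a1 (0.24 ± 0.07) were among those that rose, and the collagen galactosyltransferase Colgalt2 fell (-1.94 ± 0.44). That count of 6 was 1 without mCherry replicate 1 and 2 without either ZF-SCN9A replicate, and Sparc was the 1 that passed in all 4 fits. The lowest library was mCherry replicate 1 in 12 of the 26 collagen and matrix genes (46.2%), against 29.4% of all tested genes. P4ha2, 1 of those that rose, was also counted in the hypoxia and glycolysis list below. In bulk RNA, more cells of a type and more RNA per cell cannot be told apart. The fibroblast marker sum given above was 18.4 and 13.7 CPM with mCherry and 21.6 and 15.6 CPM with ZF-SCN9A. Of its 3 tested members 2 were positive and 1 negative. Col1a1, also among the raised matrix genes, stood at 3.20 and 2.96 CPM against 7.10 and 5.66 (1.07 ± 0.35, adjusted p = 0.0452 by edgeR). By DESeq2 Col1a1 did not pass (adjusted p = 0.835). Pdgfra went the other way, at 11.6 and 8.06 CPM against 9.94 and 6.33. The part of fibroblasts in the increases of secreted, contractile and matrix genes was not tested.

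Of the lists examined, hypoxia and glycolysis held the most increases, 8 of 33 tested genes, where 1.95% of all tested genes rose. They include the vasodilator peptide gene Adm (9.90 and 15.7 CPM against 31.7 and 27.4), Ndrg1 (33.2 and 45.7 against 67.5 and 53.8), hexokinase 2, Hk2 (170.0 and 209 against 252 and 241), the glucose transporter gene Slc2a3 (497 and 676 against 760.0 and 742) and Pdk1, which keeps pyruvate out of the mitochondrion (48.0 and 60.8 against 70.8 and 77.4). In each of them mCherry replicate 1 was the lowest library by a margin, and mCherry replicate 2 lay closer to ZF-SCN9A. This held across the list: mCherry replicate 1 had the lowest value in 29 of the 33 genes (87.9%), against 29.4% of all tested genes. Without mCherry replicate 1 the median log2 fold change of the list went from 0.11 to 0.01, and the genes that passed from 9 to 4. Without mCherry replicate 2 they were 0.26 and 15, and 6 genes passed without ZF-SCN9A replicate 1.

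Hif1a, the oxygen-regulated transcription factor that drives many of these genes, did not rise with them. It was measured at 151 and 134 CPM in mCherry against 96.4 and 93.4 CPM in ZF-SCN9A, and fell by 0.58 ± 0.08 on the log2 scale (SE, adjusted p = 6.32e-10). Tpi1, a glycolytic enzyme of the same list, fell by 0.62 ± 0.06 (924 and 1049 CPM against 620.1 and 668, adjusted p = 9.04e-21). The call of Tpi1 and that of Hif1a held in every fit that left out 1 library. Exons of Gm15283 on the opposite strand overlap 5.60% of the exon bases of Hif1a.

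**Figure D4:**
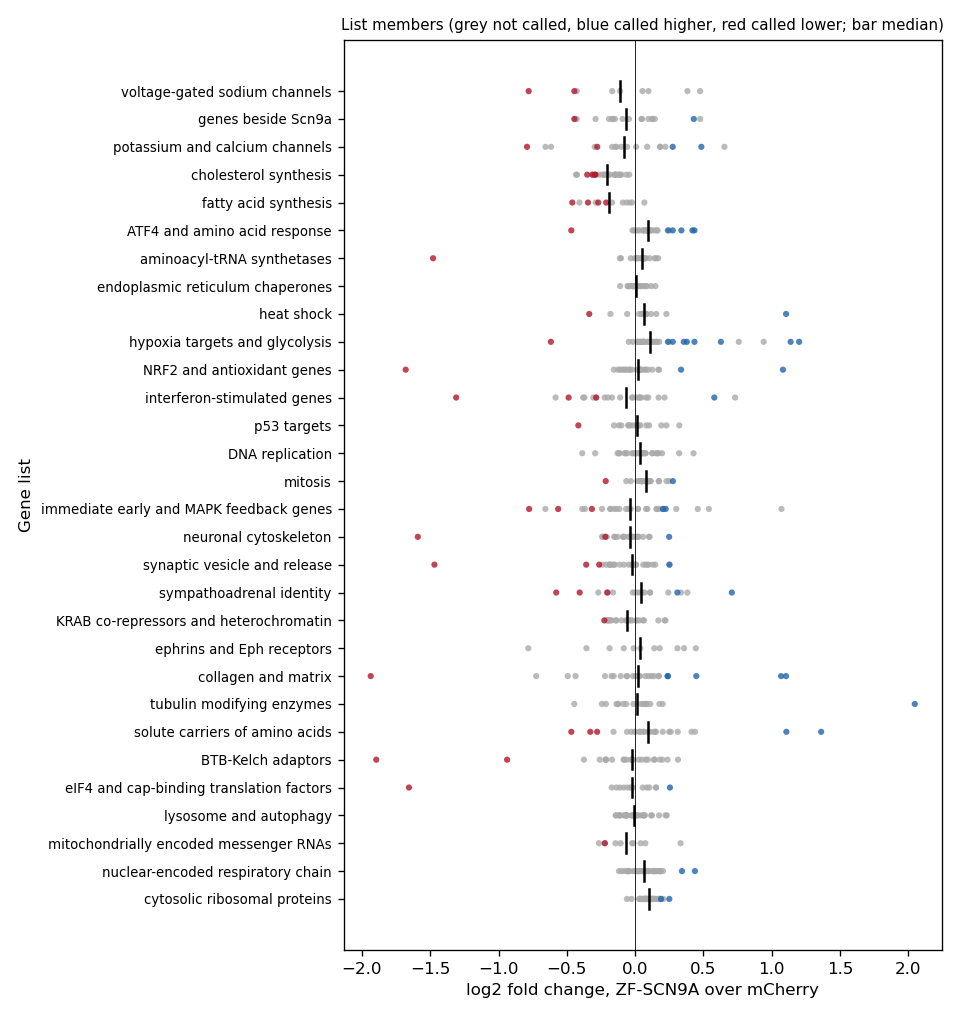
Each dot is a tested member of a gene list, by log2 fold change of ZF-SCN9A over mCherry. Blue members rose, red members fell, grey ones did not pass, and the black bar is the list's median. All 24 cholesterol genes lie left of 0, while Tarsl2, Eif4e3 and Stat2 lie alone far to the left of their lists.

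Every lipid synthesis gene that changed was lower. Fasn, the fatty acid synthase, was measured at 1159 and 1208 CPM in mCherry against 795 and 928 CPM in ZF-SCN9A, and fell by 0.46 ± 0.06 on the log2 scale (SE, adjusted p = 1.22e-11). Acaca (-0.34), which makes malonyl-CoA, the desaturase gene Scd2 (-0.21) and the elongase gene Elovl6 (-0.27) fell too. So 4 of 12 tested fatty acid synthesis genes fell, where 2.78% of all tested genes did. Negative values were found for 11 of the 12, against 49.6% of all tested genes, and the median was -0.19. Fasn alone of them passed in every fit that left out 1 library. Of 24 tested cholesterol synthesis genes 4 fell, and all 24 were negative with a median of -0.21, although Hmgcs1, the one with the smallest p (-0.35), did not pass without ZF-SCN9A replicate 1 (-0.30, adjusted p = 0.135). Without that library 1 gene passed in each of both lists, and without mCherry replicate 1 it was 6 for cholesterol. Without 1 library the medians ran from -0.24 to -0.16 for cholesterol and from -0.22 to -0.11 for fatty acids.

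Genes of the ATF4 and amino acid response rose in 5 cases of 26 tested, and 1 fell, where 1.95% of all tested genes rose and 2.78% fell. The lowest library was mCherry replicate 1 in 12 of the 26 (46.2%), against 29.4% of all tested genes. Ddit4, 1 of the 5, was also counted in the hypoxia and glycolysis list. Trib3, a pseudokinase induced by amino acid shortage, stood at 148 and 159 CPM against 200.4 and 216 and rose by 0.43 ± 0.07 (SE, adjusted p = 5.54e-07), passing without each library in turn. Aldh1l2 (0.34), a mitochondrial folate enzyme, the mTORC1 inhibitor gene Ddit4 (0.28), Stc2 (0.42) and Pck2 (0.24) rose, but each lost its call in at least 1 such fit. The list's 6 genes were 2 without mCherry replicate 1 and 3 without ZF-SCN9A replicate 1. Slc38a2, the glutamine carrier that is a known target of the same response, went the other way, from 711 and 569.7 CPM to 480.3 and 445 CPM (-0.47 ± 0.06, adjusted p = 3.31e-11). By DESeq2 Slc38a2 did not pass (adjusted p = 0.252). The carrier genes Slc6a6 (-0.33) and Slc7a14 (-0.28) fell as well, among 26 tested amino acid carriers of which 2 rose, a count of 5 that was 1 without mCherry replicate 1 and 2 without either ZF-SCN9A replicate.

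No gene of the endoplasmic reticulum chaperone list passed by edgeR, DESeq2 or limma-voom, of 20 tested, with 0 at an unadjusted p under 0.05. Beside this list and those that follow, 4.72% of all tested genes passed by edgeR. Heat shock genes gave 1 increase (Serpinh1, 1.11) and 1 decrease (the transcription factor gene Hsf2, -0.34) among 15, both of them lost in all but 1 of the fits without 1 library. The p53 target list had Tigar alone (-0.42) of 17. Ribosomal protein genes had small positive values in 51 of 53 tested genes (median 0.10), with Rplp1 (0.25) and Rpl28 (0.19) passing, but mCherry replicate 1 was the lowest library in 42 of the 53 (79.2%), and without mCherry replicate 2 there were 6 that passed, without either ZF-SCN9A replicate 0. Among nuclear-encoded respiratory chain genes Cox8a (0.34) and Ndufs7 (0.44) rose of 42 tested. Neither passed without mCherry replicate 1 (0.18 for Cox8a and 0.36 for Ndufs7) or without ZF-SCN9A replicate 2, nor did Ndufs7 without ZF-SCN9A replicate 1, and DESeq2 passed neither (adjusted p = 0.393 and adjusted p = 0.264). mCherry replicate 1 was the lowest library in 21 of these 42 genes. Among 10 tested messenger RNAs of the mitochondrial genome mt-Nd1 fell (-0.22), with its libraries overlapping between the groups.

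In the lists of neuronal structure and release 3 and 4 genes passed, where 4.72% of all tested genes did. Of 25 tested cytoskeleton genes the tau kinase gene Ttbk1 (125 and 127 CPM against 37.9 and 47.1) and the tubulin gene Tuba1a (-0.22, with 26.2% of its exon bases shared with Gm49450) fell, and Prph, which encodes the neurofilament relative peripherin, rose (0.25). Of 29 tested genes of synaptic vesicles and release, gamma-synuclein, Sncg (30.3 and 40.7 CPM against 14.04 and 11.3), the SNARE gene Snap25 (-0.26) and Sv2a (-0.36) fell, and chromogranin A, Chga, rose (0.25). Apart from Ttbk1 and Sncg these calls held in at most 2 of the 4 fits that left out 1 library. None of 11 tested ephrin and Eph receptor genes passed by edgeR, DESeq2 or limma-voom (1 at an unadjusted p under 0.05).

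Genes that changed were also looked up by position. Starts of 2 lowered genes lay within 50 kb of each other for 14 of the 358 lowered genes (3.91%), and 3.25% of all tested genes had a lowered gene that near. Examples of such pairs were Tpi1 with Gpr162 on chromosome 6, Ptgs1 with the noncoding Gm13431 on chromosome 2, and Erf with Cic, transcriptional repressors of the ERK pathway, on chromosome 7. The lowered pairs also include mt-Rnr2 with mt-Nd1, both on the mitochondrial genome. For raised genes the shares were 16 of 251 (6.37%) and 3.24%, with pairs such as Pld4 and Ahnak2 on chromosome 12 and Ttll13 and Prc1 on chromosome 7. Any tested gene lay within 50 kb for 52.5% of lowered, 65.3% of raised and 68.1% of all tested genes, so the shares are not like for like. The reason for the shares was not tested.

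The zinc-finger changes were then set against those of dCas9-SCN9A relative to dCas9-empty, in cells with their own controls. The difference between both changes was tested over all 10 libraries, and 143 of 15766 genes passed (0.907%), 102 lower with the zinc finger (0.647%) and 41 higher (0.26%). The ZF-SCN9A and mCherry libraries that picked the genes below enter this test again, so its counts among them are not independent of the picking. Of the 609 genes that changed with ZF-SCN9A, 135 passed this test, and of the 115 that did so in every fit without 1 library, 85 passed. Scn9a did not: it stood at -1.38 with dCas9, and the zinc-finger change minus the dCas9 change was -0.39 ± 0.15 (SE, adjusted p = 0.278). The 86 genes that fell in every such fit had a median dCas9 log2 fold change of -0.05, and without Scn9a these lay between -0.23 and 0.22. Among the genes described above, Ckap5 stood at -0.11 with dCas9 (difference -1.29 ± 0.10, adjusted p = 2.00e-10), Stat2 at -0.02 (-1.29 ± 0.11, adjusted p = 3.86e-09) and Hmox1 at 0.00 (1.08 ± 0.11, adjusted p = 4.96e-07).

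**Figure D5:**
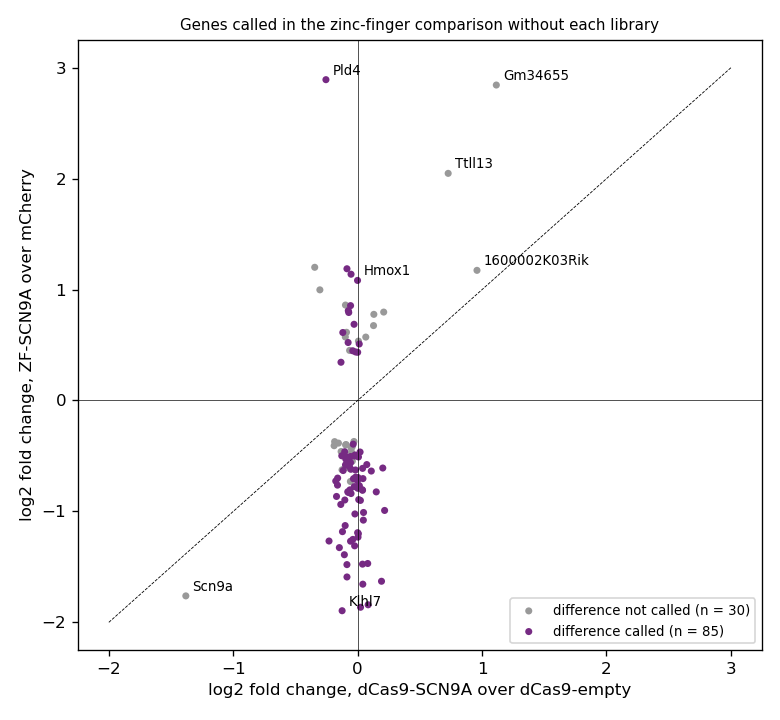
The 115 genes that changed in every zinc-finger fit leaving out 1 library, by log2 fold change with dCas9-SCN9A (horizontal) and with ZF-SCN9A (vertical), with the line of equal change dashed. Purple marks the 85 whose changes differ by the test over all 10 libraries, most of which stand near 0 with dCas9, and Scn9a lies near the dashed line.

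Not every strong change differed between the repressors by this test. 1600002K03Rik, a short protein-coding gene, was measured at 8.38 and 6.04 CPM in mCherry against 16.3 and 16.1 CPM in ZF-SCN9A (1.17 ± 0.22, adjusted p = 1.43e-05), and changed by 0.96 with dCas9, a difference of 0.21 ± 0.25 (SE, adjusted p = 0.825). It and Scn9a are the 2 genes that passed in both comparisons by edgeR. In the zinc-finger comparison 1600002K03Rik did not pass by DESeq2 (adjusted p = 0.0861). Adm stood at 1.20 and -0.35, and Rgs4 at 1.00 and -0.30, but their differences of 1.54 ± 0.40 and 1.30 ± 0.46 did not pass (adjusted p = 0.189 and adjusted p = 0.374). Fasn did not pass either, at -0.46 and -0.13 (difference -0.33 ± 0.09, adjusted p = 0.0781). Depth, plasmids and controls differed between the arms, and their part in these differences was not tested.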

How the data were processed

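RNA sequencing was analysed for 2 ZF-SCN9A and 2 mCherry libraries, with 6 dCas9 libraries for the test of differences. Each deposited table holds raw counts of reads for every gene, with bcl2fastq 2.20, STAR 2.7.3a and DESeq2 on build GRCm38 named in the submitters' processing notes. Neither the annotation release nor the settings of the count step are stated there. The unstranded count column was used, since the strand columns held about equal reads. Of 55401 identifiers 55141 were found in GENCODE M21. Entries naming no gene (26.4% of listed reads in mCherry and 28.5% in ZF-SCN9A as group means) and plasmid entries entered neither library sizes nor tests. Mitochondrial genes held 1.82% and 1.79% of gene counts.

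Genes were tested by quasi-likelihood in edgeR (edgeR 4.0.16, R 4.3.3; limma 3.58.1 and DESeq2 1.42.0 for alternatives) with TMM scaling, the package's low-count filter, robust fitting and Benjamini-Hochberg adjustment. It had 2 residual degrees of freedom, and 88.0% of genes took their spread wholly from that shared across genes. CPM are counts scaled by TMM-adjusted gene counts. Whether replicates were separate cultures is not stated, so the p-values cover only the spread among these libraries, and that spread may be technical. Replicates differed by more than sampling noise (chi-square per degree of freedom 2.84 and 1.98). On simulated counts for this comparison over 12877 genes, 85% of 2-fold and 61% of 1.4-fold changes were recovered, with 7 false among 153 calls. The simulation gave every gene the same spread and no shift shared by many genes of 1 library. Its share of false calls therefore need not hold for the real libraries.

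The comparison, its 35 gene lists and the alternatives were chosen with earlier results of these data known. Genes named were Scn9a, the 20 lowest and 20 highest log2 fold changes among genes passing in the fit of all 4 libraries and without each library, the 5 smallest p in each direction, and up to 4 passing members of each list by p (2 where none passed), unless said otherwise. Some genes that this rule names are not reported here.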

Additional observations from a re-analysis of the deposited data

Results flagged for a closer look

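The zinc-finger change minus the dCas9 change passed the test of the difference over all 10 libraries (edgeR, Benjamini-Hochberg adjustment over all genes, 0.907% of genes passing) for the genes listed here. The genes were picked from the zinc-finger comparison, whose libraries enter this test again, so passing it is not independent of the picking. All values are differences on the log2 scale. Among the genes that fell most with the zinc finger they were -1.78 for Klhl7, -1.89 for Limd1, -1.93 for Adam15, -1.70 for Eif4e3, -1.83 for Slc50a1, -1.51 for Ttbk1, -1.40 for Tarsl2, -1.52 for Git1, -1.56 for Sncg and -1.29 for Ckap5. They were -1.19 for Acsl1, -1.29 for Stat2, -1.22 for Stac, -1.04 for Vegfc, -1.22 for B930095G15Rik, -1.24 for Pnma2, -1.21 for Gramd4, -1.20 for Atp6v1g1 and -1.07 for Pogk. Among the genes that rose most they were 3.17 for Pld4, 1.27 for Mamdc2, 1.19 for Ankrd37, 1.08 for Hmox1, 0.91 for Acta2, 0.88 for Htr3a, 0.86 for Stard5, 0.71 for Fetub and 0.73 for Plxnd1.

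Among members of the gene lists the differences were 0.43 for Trib3, 0.48 for Aldh1l2, -0.76 for Egr1, 0.38 for Dusp4, -0.66 for Gata2, 0.42 for Ret, 0.48 for Sparc, -2.01 for Colgalt2 and -0.81 for Klhl5. Genes picked after their values were seen had differences of -0.80 for Bach1, -0.50 for Hif1a, -0.75 for Atrx, -0.85 for Daxx, -0.91 for Med12, -0.98 for Kat5, -1.03 for Tgfb1, -0.50 for Gnas, -0.66 for Ptgs1, -1.03 for F5 and -1.13 for Mfsd13a.

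Plasmid sequences were also counted in libraries whose labels name another plasmid. The zinc-finger entry held 35 and 14 reads in mCherry replicates 1 and 2, and the mCherry entry held 59 and 11 reads in ZF-SCN9A replicates 1 and 2. In the 6 dCas9 libraries the zinc-finger entry held 0 reads, and the mCherry entry held 7 in dCas9-empty replicate 1, 9 in dCas9-SCN9A replicate 1 and 0 in the other 4.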

How the results depend on the processing

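Scn9a kept its direction and stayed past the threshold in every alternative run, with log2 fold changes from -1.92 to -1.64. The number of genes passing moved far more. It was 114 with DESeq2 (21 higher, 93 lower), 348 with all 10 libraries in 1 fit (115 and 233), 275 with the strand-specific column (96 and 179) and 283 with the other strand column, an alternative chosen after seeing the data (109 and 174). Without a filter on low counts 149 genes were higher. Without 1 library the number ran from 201 to 787, with 71 to 355 higher and 130 to 432 lower, the highest being without mCherry replicate 2. Without mCherry replicate 1 there were 262, without ZF-SCN9A replicate 1 there were 201 and without ZF-SCN9A replicate 2 there were 249. In these fits the lone sample of a group is assumed to vary like the other group. Plain library size gave 291 higher and 315 lower. A fit with a replicate block passed 570 genes, 222 higher and 348 lower, and Scn9a stood at -1.78. The differences between replicates 1 and 2 correlated at 0.066 between the groups over genes, so the numbers were not taken to pair the samples. No gene examined that passed in the main fit reversed its direction in an alternative. Genes that did not pass could: Tek (0.15) ran from -0.60 to 1.55 without 1 library. List medians near 0 changed sign too. Those of the NRF2 and antioxidant genes, the p53 targets and the immediate early genes did so in 3 alternatives each. That of the genes beside Scn9a did so in 1, and several further lists, such as collagen and matrix, in 1 or 2. Depth limits the low genes: ZF-SCN9A replicate 2 held 4.41 M gene counts.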
